A study of Rattus norvegicus with 6 samples.

Results

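The CXC and CX3C chemokine genes of rat nucleus pulposus cells, the cells of the soft core of the intervertebral disc, were followed across 6 RNA sequencing libraries. The group held 10 genes of the 22573 rows used, taken by symbol and kept whatever their level: Cxcl1, Cxcl2, Cxcl3, Cxcl10, Cxcl11, Cxcl12, Cxcl14, Cxcl16, Cx3cl1 and the receptor gene Cxcr4. All 10 were in the files. The cells came from Sprague Dawley rats, and the libraries formed a control group of 3 and a strain group of 3, whose cells were under cyclic tension. Tension was applied with a Flexcell device at 18% elongation and 0.2 Hz for 24 h. That text is shared by every sample, and only the class label sets the controls apart as unstretched. The sources used here do not say whether replicates were separate animals or cultures, and give no passage or batch, so p-values measure the spread between these libraries, which may be technical.

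Chemokines are small secreted proteins that steer migrating leukocytes through G protein-coupled receptors, and the CXC and CX3C classes are named for the spacing of their first cysteines. CXCL1, CXCL2 and CXCL3 carry a glutamate-leucine-arginine (ELR) motif before those cysteines and attract neutrophils through CXCR2. CXCL10 and CXCL11 lack it and are known as interferon-induced ligands of CXCR3 on T cells. CXCL12 is a homeostatic chemokine read by CXCR4 and scavenged by ACKR3, and CXCL16 and CX3CL1 are made as membrane-bound proteins that proteases release. In the degenerating disc, chemokines made by disc cells are studied as signals that draw in immune cells. Many of their genes are known targets of the inflammatory transcription factor NF-kB.

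The stretches before the start sites of 5 of these genes are shown: those of Cxcl1, Cxcl2, Cxcl10 and Cxcl11 because they hold matches to NF-kB or interferon motifs, and that of Cxcl12 because it is the gene that rose. They are the 250 bases upstream of the RefSeq start on the GRCr8 rat build, 5′ to 3′ on the gene's strand. Capitals mark matches, on either strand, to a strict NF-kB pattern (GGG, any 2 bases, TTTCC), to a loose one (GGG, any 5 bases, CC), which holds every match to the strict one, and to the interferon-stimulated response element (GAAA, any 2 bases, GAAA). The window of Cxcl12 held no match to these patterns, and neither did those of Cxcl16, Cx3cl1 and Cxcr4, whose values were lower under strain.
Cxcl1 (chr14:17479322-17479571, minus strand): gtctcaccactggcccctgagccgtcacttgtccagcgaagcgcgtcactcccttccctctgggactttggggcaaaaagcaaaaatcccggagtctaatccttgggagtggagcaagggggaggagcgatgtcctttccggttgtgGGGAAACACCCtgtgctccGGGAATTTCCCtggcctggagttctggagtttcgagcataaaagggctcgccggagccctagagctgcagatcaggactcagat
Cxcl2 (chr14:17467256-17467505, minus strand): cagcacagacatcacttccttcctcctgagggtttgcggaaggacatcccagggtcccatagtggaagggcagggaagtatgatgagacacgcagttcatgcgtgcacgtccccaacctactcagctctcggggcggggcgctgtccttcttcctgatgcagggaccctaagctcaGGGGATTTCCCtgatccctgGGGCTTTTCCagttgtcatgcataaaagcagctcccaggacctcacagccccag
Cxcl10 (chr14:15988816-15989065, plus strand): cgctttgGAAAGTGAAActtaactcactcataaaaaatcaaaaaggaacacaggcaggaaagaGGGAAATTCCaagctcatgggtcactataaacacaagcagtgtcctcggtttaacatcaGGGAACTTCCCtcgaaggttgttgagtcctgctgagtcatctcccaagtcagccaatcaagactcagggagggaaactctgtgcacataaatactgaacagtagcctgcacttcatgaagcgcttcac
Cxcl11 (chr14:15973478-15973727, plus strand): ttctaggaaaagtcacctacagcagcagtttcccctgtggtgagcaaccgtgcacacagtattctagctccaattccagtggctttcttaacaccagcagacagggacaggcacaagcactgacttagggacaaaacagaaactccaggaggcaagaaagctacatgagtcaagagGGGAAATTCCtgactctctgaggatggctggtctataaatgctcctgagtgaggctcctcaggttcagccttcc
Cxcl12 (chr4:152060531-152060780, plus strand): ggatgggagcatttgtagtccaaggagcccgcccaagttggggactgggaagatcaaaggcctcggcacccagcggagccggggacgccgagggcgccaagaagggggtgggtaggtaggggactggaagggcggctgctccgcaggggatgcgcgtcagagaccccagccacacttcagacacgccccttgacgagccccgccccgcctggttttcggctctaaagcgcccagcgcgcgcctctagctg

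Of the 10 genes, 9 matched the promoter table by symbol, all but Cxcl3. The strict NF-kB pattern was in the windows of Cxcl1, with the forward match GGGAATTTCC 84 bases upstream and a reverse match, GGAAACACCC, 102 bases upstream of the start, and of Cxcl2, with GGGGATTTCC at 74 and GGGCTTTTCC at 54 bases. It was in 1.30% of the 33469 windows of the same length in the table. The loose pattern was in 4 of the 9 windows (Cxcl1, Cxcl2, Cxcl10 and Cxcl11) and in 42.3% of all windows, so that its presence sets none of these genes apart. The interferon-stimulated response element was found before Cxcl10, as GAAAGTGAAA at 243 bases, and in 3.41% of all windows. TGANTCA, the pattern of AP-1 factors, was before Cxcl10, Cxcl11 and Cxcl14 and in 6.34% of all windows. ACGTG, the core of the hypoxia response element, was before Cxcl2 (16.6% of all windows), and TATAAA before Cxcl10, Cxcl11, Cx3cl1 and Cxcr4 (12.9%). A match is a description of the letters and not a bound site, and no binding was measured in these libraries.

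Expression was lower under strain for most of the group, with one gene moving the other way. Values are in FPKM, a unit that divides the fragments of a gene by its length and by the size of the library, so levels can be compared between genes. A gene was tested, with limma on log2(FPKM + 1), when its mean over the libraries reached 1 FPKM, and an adjusted p under 0.05 over all 10180 tested genes was called a change. Of the 10 genes, 7 passed that filter, and of these 6 fell (Cxcl1, Cxcl2, Cxcl3, Cxcl10, Cxcl16 and Cx3cl1) and 1, Cxcl12, rose. Among all tested genes 35.4% were called, 19.0% lower and 16.4% higher (1936 and 1672 genes). That balance depends on the scaling, with 1711 lower and 2138 higher after quantile normalization and 1875 and 1858 after median-of-ratios scaling. The median log2 fold change was -2.48 over the 7 genes and -0.0123 over all tested genes. A fall of at least 2 on the log2 scale was seen in 5 of the 7 and in 0.923% of all tested genes. The groups did not overlap for any of the 7, which was also so for 51.9% of all tested genes (28.0% with the controls higher and 24.0% with the strain libraries higher). Cxcl11, Cxcl14 and Cxcr4 were under the filter.

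**Figure D1:**
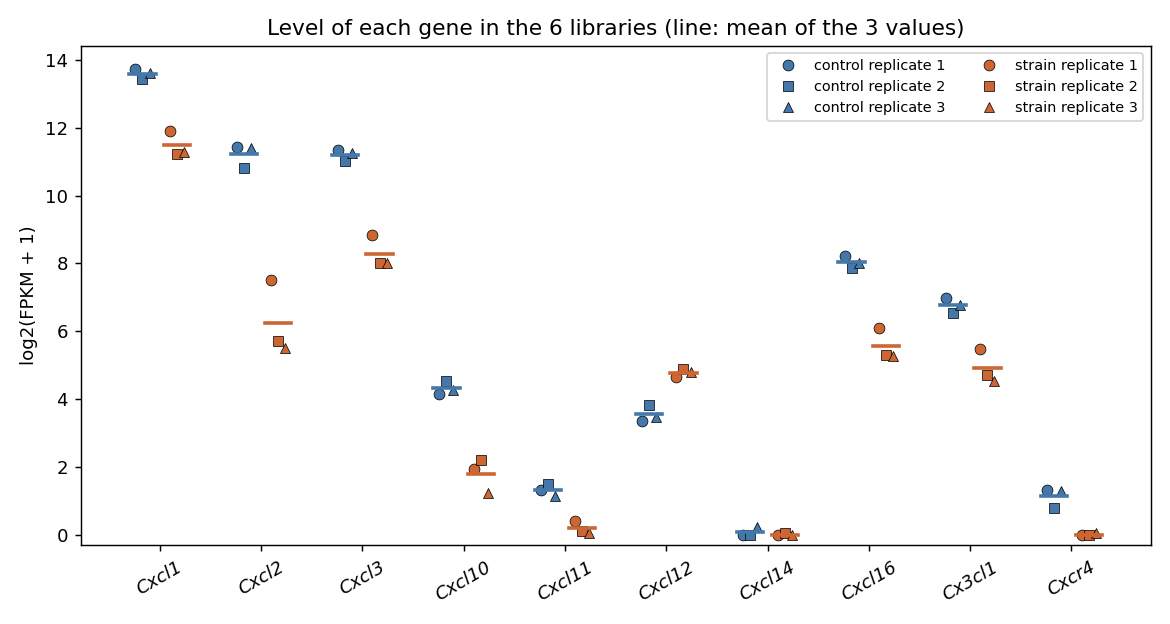
The level of each of the 10 genes, as log2(FPKM + 1), in the 3 control (blue) and 3 strain (orange) libraries, with replicates 1, 2 and 3 as circles, squares and triangles and the mean of the 3 plotted values as a line. Cxcl1 had the highest level of the 10 genes in every library, Cxcl12 is the one gene whose strain libraries lie above its controls, and Cxcl14 was near 0 in all 6 libraries.

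The libraries differed in ways that touch these results. Each library had 14378 to 14582 genes above 0. Along the leading principal component (78.6% of the variance) controls lay at -32.7 to -24.1 and strain libraries at 20.6 to 35.9, with strain replicate 1 the closest to the controls. Brachyury (T) and the cytokeratin genes Krt18 and Krt19, markers used to define nucleus pulposus cells, were at or under 0.139 FPKM in every library, whereas Acan, the aggrecan gene, was at 24.2 to 43.3 FPKM, the cytokeratin gene Krt8 at 2.85 to 11.3 FPKM, the transcription factor genes Pax1 and Foxf1 at 3.0 to 11.4 and 7.49 to 13.6 FPKM, and Col1a1 of fibrous tissue at 1679.7 to 5575 FPKM. Of 15 nucleus pulposus markers in the files 10 were tested, of which 7 rose, Krt8, Pax1 and Foxf1 among them, and 1, Cdh2, fell. Of 10 fibroblast and annulus fibrosus markers 9 were tested, of which 6 rose, Col1a1 among them, and 1, Thy1, fell. Among all tested genes 16.4% rose and 19.0% fell. The nucleus pulposus marker Col2a1, under the filter for testing, was at 0.0104 to 0.0682 FPKM in controls and 0.445 to 1.41 FPKM under strain. In bulk RNA, fewer cells of a type and less RNA per cell cannot be told apart.

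Cxcl1, a neutrophil attractant of the ELR group, stood at 13492, 10958 and 12419 FPKM in control replicates 1, 2 and 3. Under strain it was at 3860, 2412 and 2508 FPKM in replicates 1, 2 and 3. All 3 controls were above all 3 strain libraries, and strain replicate 1 was the highest of its group, 1.57 times the mean of the other two. In each control library Cxcl1 had the highest FPKM of any gene, with 3.30% to 3.89% of the summed FPKM, and under strain it ranked 4, 7 and 9, with 1.22%, 0.781% and 0.722%. The fall was 4.20-fold as a ratio of group means, from 12289.6 ± 1272 to 2927 ± 809.95 FPKM (SD, n = 3), and the log2 fold change was -2.10 ± 0.20 (SE; limma adjusted p = 0.000118).

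Cxcl2, which encodes a close relative of CXCL1 that also attracts neutrophils, fell the most of the 7 tested genes. It was at 2743, 1792 and 2699 FPKM in control replicates 1 to 3. In strain replicates 1 to 3 it was at 183, 51.6 and 44.7 FPKM. Strain replicate 1 held 3.80 times the mean of strain replicates 2 and 3, but lay far below every control. The means were 2411 ± 537 and 93.1 ± 77.9 FPKM (SD, n = 3), a 25.90-fold fall, with a log2 fold change of -4.96 ± 0.57 (SE; limma adjusted p = 0.00209). Without strain replicate 1 the strain mean was 48.1 FPKM and the fall 50.08-fold, so the size of this fall rests on that library. By its log2 fold change it was the 12th largest fall of the 10180 tested genes.

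Cxcl3, the third ELR gene of the group, lay between the others in its response. Control replicates 1 to 3 were at 2576, 2062 and 2453 FPKM, and strain replicates 1 to 3 at 454, 258 and 259.8 FPKM. The controls were close to one another, with a coefficient of variation of 11.3%, while strain replicate 1 again stood above the other strain libraries. The fall was 7.30-fold, from 2364 ± 268 to 324 ± 113 FPKM (SD, n = 3), with a log2 fold change of -2.91 ± 0.21 (SE; limma adjusted p = 4.59e-05).

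The ELR genes thus differed in how much they fell, which changed their proportions. Cxcl1 was 4.60 to 6.12 times as abundant as Cxcl2 in controls and 21.1 to 56.1 times under strain. The ratio of Cxcl1 to Cxcl3 was 5.06 to 5.31 in controls and 8.50 to 9.65 under strain, and that of Cxcl3 to Cxcl2 was 0.909 to 1.15 and 2.48 to 5.81. None of these ratios overlapped between the groups. An exact two-sided permutation test over libraries gave p = 0.10 for each of the 3 (adjusted p = 0.13 over 8 ratios), and 0.10 is the smallest value that 3 libraries against 3 can give. Cxcl2 made up 12.1% to 15.4% of the summed FPKM of these 3 genes in controls and 1.59% to 4.07% under strain, and Cxcl1 70.7% to 74.0% and 85.8% to 89.2%. These genes are related in sequence, and the sources used here do not say how reads shared between them were assigned, so the split between them is less certain than their sum.

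**Figure D2:**
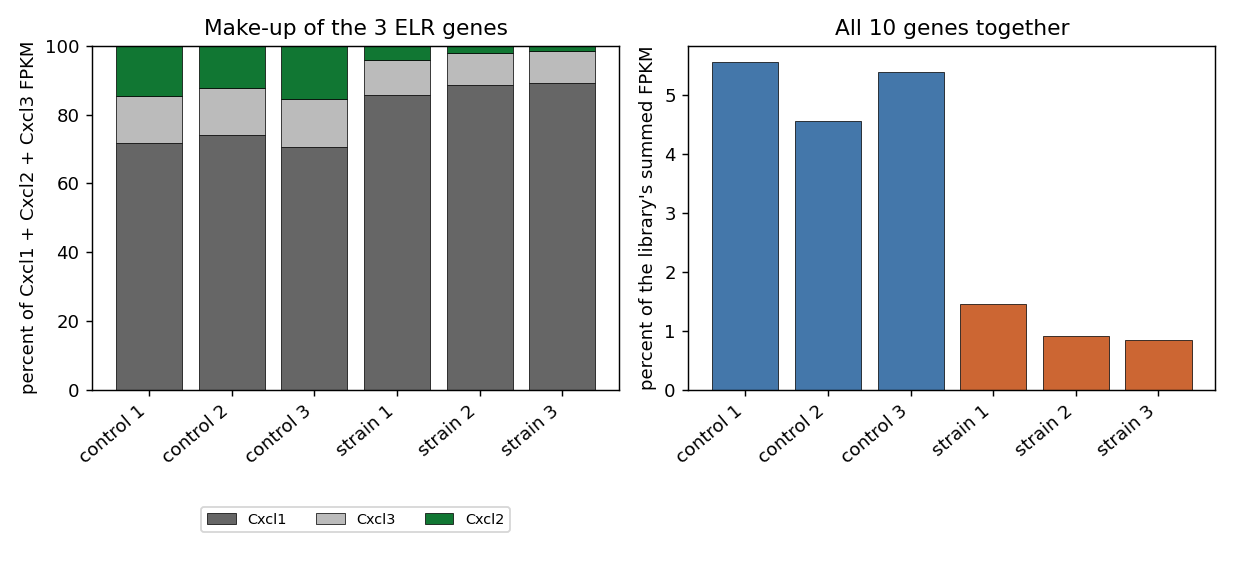
Left, the share of Cxcl1, Cxcl3 and Cxcl2 in their summed FPKM in each library (percent, stacked bars). Right, the share of all 10 genes together in the summed FPKM of each library (percent), which was 4.57% to 5.56% in controls (blue) and 0.835% to 1.46% in strain libraries (orange).

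Of the other CXC genes outside the group, 6 of 7 were in the files and 1, Cxcl6, was tested. Cxcl6, an ELR gene whose product also attracts neutrophils, fell 1.93-fold, from 285, 294 and 381 FPKM in control replicates 1 to 3 to 179, 146 and 172 FPKM in strain replicates 1 to 3. Its log2 fold change was -0.94 (limma adjusted p = 0.00105). In these libraries its fall was smaller than that of Cxcl1. The ratio of Cxcl1 to Cxcl6 was 32.6 to 47.4 in controls and 14.6 to 21.6 under strain. The exact permutation test gave p = 0.10, the smallest possible (adjusted p = 0.13 over 8 ratios). The upstream window of Cxcl6 also held GGGAATTTCC, 88 bases before the start. Cxcl9 and Cxcl17 were listed at 0 in all 6 libraries, and Cxcl13, Pf4 and Ppbp had means under 0.5 FPKM in both groups.

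Of the 9 receptor genes outside the group, 5 had no value above 0. Cxcr1 and Cxcr2, the receptors for the ELR ligands, were listed at 0 in all 6 libraries. Cxcr6 and Cx3cr1, the receptors of CXCL16 and CX3CL1, and the scavenging receptor gene Ackr1 were also listed at 0 in all 6. Cxcr3, the receptor of CXCL10 and CXCL11, was at 0.489 to 1.10 FPKM in controls and 0.254 to 0.876 FPKM under strain, with overlapping groups and no test. Of these 9 genes only Ackr3 and Ackr4, both of which take up chemokines without G protein signalling, passed the filter, and both rose. Among all tested genes 16.4% rose. Since the depth of the libraries is unknown, a value of 0 does not show that a gene was silent.

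Among the ligands of CXCR3, Cxcl10 was the only one tested. It was at 16.7, 22.4 and 18.4 FPKM in control replicates 1 to 3 and at 2.89, 3.69 and 1.39 FPKM in strain replicates 1 to 3. Here strain replicate 2 and not replicate 1 was the highest of its group, unlike the other 5 genes that fell. The fall was 7.23-fold, from 19.2 ± 2.94 to 2.65 ± 1.17 FPKM (SD, n = 3), with a log2 fold change of -2.51 ± 0.23 (SE; limma adjusted p = 0.000121).

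Cxcl11, which encodes another CXCR3 ligand, was under the filter with a mean of 0.843 FPKM. Its control libraries were at 1.49, 1.86 and 1.21 FPKM in replicates 1 to 3, and its strain libraries at 0.350, 0.0981 and 0.0476 FPKM. The groups did not overlap, and the lowest strain values were under 0.1 FPKM. In the fit without a filter, where 23.3% of 16152 genes were called, Cxcl11 was called lower (limma adjusted p = 0.00266). Its level relative to Cxcl10 did not separate the groups: the ratio of Cxcl10 to Cxcl11 was 11.2 to 15.3 in controls and 8.26 to 37.6 under strain (exact permutation p = 0.40, 2-sided).

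Both chemokine genes with membrane-bound products fell. Cxcl16 was at 300.2, 233 and 256 FPKM in control replicates 1 to 3 and at 67.1, 38.4 and 38.1 FPKM in strain replicates 1 to 3. The strain libraries were all under every control, with replicate 1 at 1.75 times the mean of the other two. The fall was 5.49-fold, from 263 ± 34.3 to 47.9 ± 16.7 FPKM (SD, n = 3), with a log2 fold change of -2.48 ± 0.21 (SE; limma adjusted p = 8.28e-05).

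Cx3cl1, which encodes fractalkine, was at 126, 92.6 and 109 FPKM in control replicates 1 to 3. Strain replicates 1 to 3 held 43.8, 25.3 and 22.1 FPKM. The groups did not overlap, and the order within the strain group was that of Cxcl2, with replicate 1 the highest and replicate 3 the lowest. The fall was 3.59-fold, from 109 ± 16.6 to 30.4 ± 11.7 FPKM (SD, n = 3), with a log2 fold change of -1.86 ± 0.24 (SE; limma adjusted p = 0.000782). Cxcl16 was 2.35 to 2.51 times as abundant as Cx3cl1 in controls and 1.52 to 1.73 times under strain. The exact permutation test gave p = 0.10, the smallest possible (adjusted p = 0.13 over 8 ratios).

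Cxcl12, the homeostatic chemokine gene also called SDF-1, rose under strain. It was at 9.29, 13.2 and 10.1 FPKM in control replicates 1 to 3 and at 24.5, 28.7 and 26.7 FPKM in strain replicates 1 to 3. Every strain library was above every control, and strain replicate 1 was the lowest of its group, the nearest to the controls. The rise was 2.44-fold, from 10.9 ± 2.09 to 26.6 ± 2.11 FPKM (SD, n = 3), with a log2 fold change of 1.23 ± 0.13 (SE; limma adjusted p = 0.000209). Cxcl1 was 827 to 1450 times as abundant as Cxcl12 in controls and 84.1 to 158 times under strain.

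The receptor genes of CXCL12 were at unlike levels. Cxcr4, its signalling receptor, was under the filter: control replicates 1 to 3 were at 1.53, 0.757 and 1.44 FPKM, strain replicates 1 and 2 were listed at 0, and strain replicate 3 was at 0.0373 FPKM. The groups did not overlap, and the fit without a filter called Cxcr4 lower (limma adjusted p = 0.00284). Ackr3, which encodes the scavenging receptor of CXCL12 and CXCL11, was at 22.5, 18.8 and 23.0 FPKM in control replicates 1 to 3 and at 43.04, 42.6 and 43.9 FPKM in strain replicates 1 to 3. It rose 2.01-fold (log2 fold change 0.98, limma adjusted p = 0.000151). The ratio of Ackr3 to Cxcl12 overlapped between the groups, at 1.42 to 2.43 in controls and 1.49 to 1.76 under strain (exact permutation p = 0.40, 2-sided). Ackr4, whose product scavenges other chemokines, rose 1.38-fold (limma adjusted p = 0.0181), a call that was lost without control replicate 2 (limma adjusted p = 0.0589) or strain replicate 1 (0.0603).

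**Figure D3:**
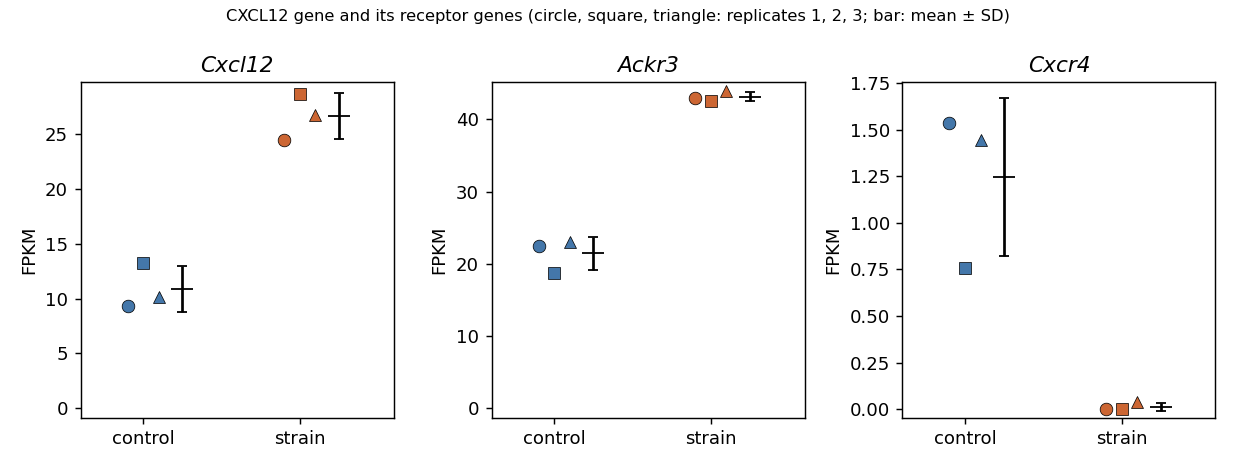
FPKM of Cxcl12, of the scavenging receptor gene Ackr3 and of the signalling receptor gene Cxcr4 in each library, on linear axes with their own ranges (points, replicates 1 to 3; bars, mean ± SD, n = 3). Cxcl12 rose from 10.9 to 26.6 FPKM and Ackr3 by 2.01-fold, while Cxcr4 was at 0 in strain replicates 1 and 2.

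Cxcl14, which encodes a chemokine of epithelia and fibroblasts, was barely present. Control replicates 1 and 2, like strain replicates 1 and 3, were listed at 0, control replicate 3 was at 0.187 FPKM and strain replicate 2 at 0.0368 FPKM. These values overlapped, and the fit without a filter did not call the gene (limma adjusted p = 0.539).

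In order of their control means the genes ran Cxcl1, Cxcl2, Cxcl3, Cxcl16, Cx3cl1, Cxcl10, Cxcl12, Cxcl11, Cxcr4 and Cxcl14, and the ranges of Cxcl2 and Cxcl3 overlapped, as did those of Cxcl11 and Cxcr4. Under strain the order was Cxcl1, Cxcl3, Cxcl2, Cxcl16, Cx3cl1, Cxcl12, Cxcl10, Cxcl11, Cxcr4 and Cxcl14, so that Cxcl3 now stood above Cxcl2 and Cxcl12 above Cxcl10, in each case with no overlap. The strain ranges of Cxcl2 and Cxcl16, of Cxcl16 and Cx3cl1, of Cx3cl1 and Cxcl12, and of Cxcr4 and Cxcl14 overlapped. Strain libraries varied more than controls for the genes that fell, with coefficients of variation of 27.7% to 83.7% against 10.4% to 22.3%, whereas for Cxcl12 it was 7.91% against 19.1%.

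**Figure D4:**
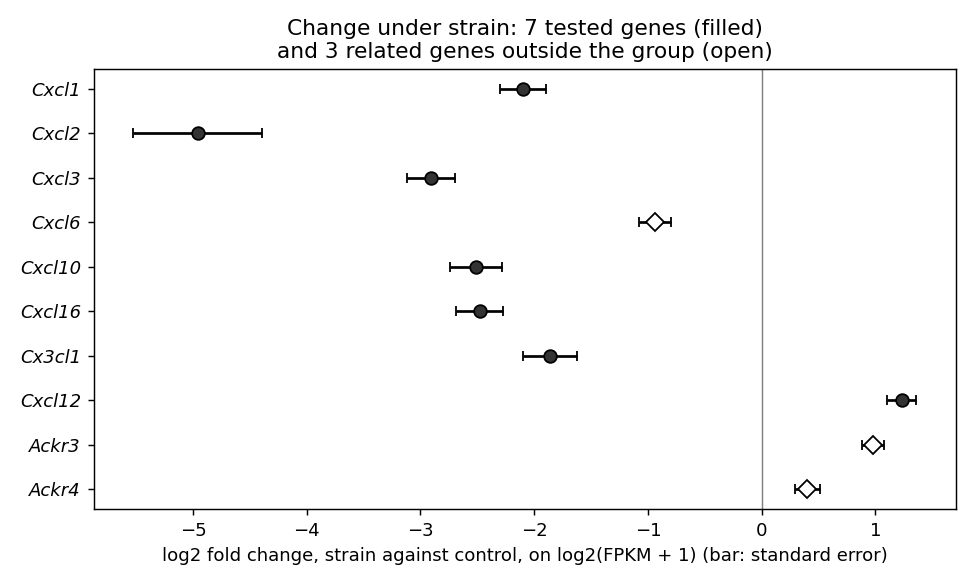
Log2 fold change of strain against control on the log2(FPKM + 1) scale with its standard error, for the 7 tested genes of the group (filled circles) and 3 related genes outside it, Cxcl6, Ackr3 and Ackr4 (open diamonds). The falls run from -0.94 for Cxcl6 to -4.96 for Cxcl2, and Cxcl12, Ackr3 and Ackr4 lie above 0.

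The genes with the most similar profiles were taken by the smallest Euclidean distance between log2(FPKM + 1) profiles over the 6 libraries, each centred on its mean. Nearest to Cxcl1 was Ripk2, a kinase gene of innate immune signalling, at a distance of 0.18 (from 53.4 to 11.3 FPKM), then Uap1 (0.22) and Slc20a1 (0.27). Cxcl2 was nearest to the cytokine genes Il1a (0.43) and Il23a (0.70) and to Nos2, the inducible nitric oxide synthase gene (0.57). Nearest to Cxcl3 were the chemokine gene Ccl20 (0.31), Bmp2 (0.33) and Ier3 (0.33). Cxcl16 was nearest to Birc3, an apoptosis inhibitor gene (0.25), Slc20a1 (0.29) and Tfpi2 (0.30). Cx3cl1 was nearest to Plpp3 (0.26), Cyp7b1 (0.27) and Uap1 (0.32). The profile of Cxcl10 had no neighbour as close, with Tll1 at 0.75, Lipg at 0.81 and Birc3 at 0.84. Cxcl12 was nearest to the adhesion gene Ncam1 (0.10), Rcan2 (0.14) and the transcription factor gene Foxc1 (0.14). Within the group the closest pair was Cxcl1 and Cx3cl1 (0.39), followed by Cxcl1 and Cxcl16 (0.48). Cxcl12 was at least 3.93 and Cxcl2 at least 2.68 from every other tested gene of the group. The same 6 libraries underlie all of these distances, and the difference between the groups dominates them.

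Genes of NF-kB subunits and inhibitors, listed with the kinase genes Ikbkb and Ikbke, were mostly lower in the same libraries. Of 12, all tested, 11 fell and 1, Ikbke, rose, with a median log2 fold change of -1.47, where 19.0% of all tested genes fell. Tnfaip3, a feedback inhibitor of the pathway, fell 6.77-fold, from 29.6, 26.1 and 21.3 FPKM in control replicates 1 to 3 to 6.13, 3.06 and 2.19 FPKM in strain replicates 1 to 3. The subunit gene Nfkb2 fell 4.98-fold, and the inhibitor genes Nfkbia and Nfkbib fell 3.19-fold and 3.31-fold (limma adjusted p = 0.0005, 1.67e-05, 0.000216 and 5.09e-05 for Tnfaip3, Nfkb2, Nfkbia and Nfkbib). The rise of Ikbke, a kinase gene named here because it was the exception, was lost in 6 of 14 alternative analyses. Summed over the 12 genes, FPKM came to 520.8 to 621 across the controls. Strain replicate 1 had 268, replicate 2 had 209 and replicate 3 had 203.5. Strain replicate 1 was also the nearest to the controls along the leading principal component of all tested genes, so its place is not particular to this list. The part of these NF-kB genes in the fall of the chemokines was not tested.

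Genes of interferon signalling, the route known for inducing Cxcl10 and Cxcl11, moved in both directions. Of 19 such genes 12 were tested, of which 2 rose, 4 fell and 6 were not called (median log2 fold change -0.13). Among all tested genes 16.4% rose and 19.0% fell. The transcription factor gene Irf1 fell 2.96-fold, from 9.85, 7.12 and 5.58 FPKM in control replicates 1 to 3 to 2.52, 2.35 and 2.76 FPKM in strain replicates 1 to 3, and the interferon-stimulated gene Ifit3 fell from 3.40 to 0.300 FPKM (limma adjusted p = 0.000747 and 8.45e-05). Jak1, a kinase gene of interferon receptors, fell from 29.9 to 19.9 FPKM, whereas Irf9, which encodes a transcription factor of interferon responses, rose 1.78-fold (limma adjusted p = 0.00186 and 0.0025). The ligand genes Ifnb1 and Ifng were listed at 0 in all 6 libraries.

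A list of 20 genes covered proteins that cut, bind or anchor these chemokines, regulators of such proteases (Rhbdf1, Rhbdf2 and Timp3), and Mif and Cd74. Of the 20 genes 17 were tested, of which 9 fell, 2 rose and 6 were not called (median log2 fold change -0.43). Among all tested genes 19.0% fell. Mmp9 and Mmp3, metalloproteinases known to trim chemokines, fell 64.44-fold and 18.30-fold, Mmp13 fell 4.44-fold, and Tnfaip6, whose product binds chemokines and hyaluronan, fell 5.37-fold (limma adjusted p = 0.00128, 0.000137, 0.000426 and 1.63e-05 for Mmp9, Mmp3, Mmp13 and Tnfaip6). Without strain replicate 1 the strain mean of Mmp9 was 4.22 FPKM and that of Mmp3 212 FPKM, against 8.08 and 301.5 FPKM with it, so that library moves the Mmp9 fold by over 1.5 times. Adam17 and Adam10, the sheddases that release CX3CL1 and CXCL16, were looked at after their values were seen. Adam17 was at 61.2 to 64.0 FPKM in controls and 51.0 to 63.8 FPKM under strain and was not called (limma adjusted p = 0.393). Adam10 fell 1.37-fold (limma adjusted p = 0.0267), a call that was lost in 5 of 14 alternative analyses, without any 1 of the 3 controls among them (limma adjusted p = 0.0647, 0.0764 and 0.0660 without control replicates 1, 2 and 3).

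Among genes of signalling below chemokine receptors, 18 of 20 were tested, of which 2 rose and 4 fell (median log2 fold change -0.03), a share of calls near the 35.4% of all tested genes. Rgs16, which shortens G protein signals, fell 2.08-fold, and the beta-arrestin gene Arrb1 fell 1.86-fold. Pik3cb, a phosphoinositide 3-kinase gene, fell from 2.83 to 0.830 FPKM, and the receptor kinase gene Grk5 rose 1.88-fold (limma adjusted p = 0.00103, 0.00141, 0.000364 and 0.00163 for Rgs16, Arrb1, Pik3cb and Grk5). Many chemokine messages are AU-rich, and their stability is regulated. Genes of regulators of message stability, not all of which act on AU-rich stretches, had 4 falls and 0 rises among 8 tested of 9. Their median log2 fold change was -0.28, and 19.0% of all tested genes fell. Zc3h12a, which encodes the ribonuclease regnase-1, fell 1.94-fold, and Zfp36, which encodes the decay factor tristetraprolin, 1.66-fold. Rc3h1, the roquin gene, fell 1.63-fold, and Khsrp fell 1.26-fold, a call lost in 4 of 14 alternative analyses: without control replicate 1, 2 or 3 (limma adjusted p = 0.0602, 0.0568 and 0.0550) and without strain replicate 1 (0.0726).

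Leukocytes make and answer these chemokines, so their markers were read in the same libraries. Ptprc, the pan-leukocyte gene, was at or under 0.0486 FPKM in every library. Of 10 macrophage markers 4 were tested, of which 1, Lyz2, rose and 2, Cd68 and Adgre1, fell. The mean of Lyz2 went from 0.249 FPKM in controls to 3.30 FPKM under strain (limma adjusted p = 0.000678). That of Cd68 went from 1.53 to 0.633 FPKM and that of Adgre1 from 3.71 to 1.31 FPKM (limma adjusted p = 0.00885 and 0.0299). Among all tested genes 16.4% rose and 19.0% fell. The summed FPKM of the macrophage list was 17.6 to 24.1 in controls and 20.1 to 23.4 under strain, mostly Cd14. Cd163 was listed at 0 throughout. The fall of Adgre1 was lost in 6 of 13 alternative analyses, the fits without control replicate 1 (limma adjusted p = 0.0643), control replicate 3 (0.0860) and strain replicates 1, 2 and 3 (0.0737, 0.0841 and 0.0931) among them. Of 10 neutrophil markers 1 was tested, Camp, which fell 2.33-fold. The summed FPKM of this list was 5.40 to 10.8 in controls and 2.69 to 5.34 under strain, mostly Camp. The defining genes S100a9, Elane and Cxcr2 were listed at 0 in all 6 libraries. None of 9 T and B cell markers was tested, with sums of at most 0.345 FPKM. Of 10 endothelial markers Eng was tested, and it rose 1.43-fold. The sums of that list, mostly Eng, were 13.4 to 14.5 FPKM in controls and 17.5 to 21.1 FPKM under strain. Cdh5 was listed at 0 throughout. Flt1, under the filter, was at 1.16 to 1.58 FPKM in controls and 0.465 to 0.497 FPKM under strain. The fit without a filter called it lower (limma adjusted p = 0.00338). That fit called Pecam1 and Erg, at or under 0.294 FPKM in every library, higher (limma adjusted p = 0.0234 and 0.0329). The part of these marker differences, which went in both directions, in the fall of the chemokines was not tested.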

How the data were processed

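RNA of 6 samples, 3 control and 3 strain, was extracted with TRIzol and made into Illumina libraries, per the labels' protocols. The authors deposited 1 FPKM value per gene symbol, not whole numbers, for 22601 rows per sample. The submitters' processing notes name Cufflinks, Cuffdiff 2.2.1, DESeq, HISAT2 2.0.4 and cutadapt 1.9.3, and as the only build hg19, a human one, although the symbols are those of rat; the role of each tool, the annotation and any scaling are not given in the sources used here. No coordinates of the files were used; promoter sequences and positions are those of RefSeq on GRCr8.

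Left out were 27 rows whose symbols had become dates (0.191% to 0.232% of summed FPKM) and 1 malformed row. FPKM keep no read totals, so depth is unknown; low values gave no common step (2.56% to 12.7% of low genes within 0.01 log2 units of the most frequent ratio between libraries), so no counting interval was computed. The 10180 genes whose mean reached 1 FPKM were fitted in limma 3.58.1 (R 4.3.3) on log2(FPKM + 1), a scale that understates the change of low genes, with trend and robust moderation, two-sided, with Benjamini-Hochberg adjustment. Folds without log are ratios of group mean FPKM, given where both means reach 1. On simulated data (10180 genes, 200 changed) the fit recovered 86.4% of 2-fold and 98.2% of 4-fold changes, set on the log2(FPKM + 1) scale. Far fewer genes changed there than the 3608 called here, so these rates need not hold for this comparison.

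The 10 genes and the lists were chosen with earlier results of these data known; 1 listed gene is not reported here. Named from each pathway list were up to 4 called genes with the largest log2 fold changes, receptors of at least 1 FPKM, marker genes that define a type or were called, and the 3 nearest profiles to each tested gene, provisional symbols aside; Adam10, Adam17 and Ikbke were added after their values were seen. Alternatives changed the pseudocount, filter, scaling, moderation, block and libraries. Ratios were tested by exact permutation over libraries.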

Additional observations from a re-analysis of the deposited data

How the results depend on the processing

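The 6 falls and the rise of Cxcl12 kept their direction and their call in all 14 alternatives: pseudocounts of 0.1 and 0.5, no filter, a filter at 5 FPKM, quantile normalization, median-of-ratios scaling, limma without trend or robust moderation, the replicate number as a block, and each library left out. Log2 fold changes ranged from -5.59 to -4.59 for Cxcl2, -2.32 to -1.98 for Cxcl1 and 1.13 to 1.36 for Cxcl12. Over the lists, 42 of 70 tested genes were called, where 35.4% of all tested genes were, and 34 to 40 with 1 library left out. Over all genes 3608 were called and 2375 to 3576 with 1 library left out, the fewest without control replicate 1. Same-numbered libraries did not deviate together (correlations 0.033, 0.108 and -0.116), so the numbers were not taken as pairs; with the replicate block 3116 genes and the same 7 chemokine genes were called. Without a filter and with each library left out, alternatives chosen after seeing the data, Cxcl11 and Cxcr4 were called lower throughout (highest limma adjusted p = 0.0169 and 0.0176) and Cxcl14 in none. The unknown depth limits what values near 0 can show.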
